A study of Gallus gallus with 5 samples.

Results

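The change in gene expression between the pre-placodal region and the invaginating otic placode of the chick embryo was measured as the net difference between the first and the last tissue library of a developmental series. Posterior pre-placodal ectoderm was taken at Hamburger-Hamilton stage 6 (HH6), and the invaginating otic placode was taken at 11 to 12 somites (11-12ss), each as 1 library of poly(A) RNA from Bovans Brown embryos. The members are the loci that differed between these 2 of the 5 libraries, chosen by fixed thresholds: a fold change over 1.5 in normalized read count, where the library with the higher value had over 4 RPKM and over 300 normalized reads. Of 18365 loci with counts, 9543 passed both levels in at least 1 of the 2 libraries, and 3706 of these passed the fold change. The remaining libraries, otic-epibranchial progenitors at 5 to 6 somites (5-6ss), the thickened otic placode at 8 to 9 somites (8-9ss) and the whole embryo at 3 somites (3ss), give the levels in between and a reference. None of the 5 groups carried a treatment or a transgene. Per the study's methods, each placode library pooled many dissected placodes after removal of mesoderm and endoderm with dispase. Each condition is 1 library, so no difference below has a replicate check, and its 95% interval is the exact binomial interval of 2 read counts, which covers counting error alone and takes each read as independent. Which libraries were read as pairs is not given in the sources used here, and where both mates of a pair were counted the interval is too narrow. "Rose", "fell", "higher" and "lower" are used of loci past the thresholds and describe these 2 libraries.

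The pre-placodal region is a band of ectoderm around the anterior neural plate from which the sense organ placodes and the cranial sensory ganglia arise, and it is marked by SIX4 and the EYA family. Under FGF signals from the mesoderm its posterior part becomes otic-epibranchial progenitors that express PAX2, and WNT and Notch signals then favour the otic fate over the epibranchial one. The otic placode thickens, invaginates and closes into the otic vesicle, from which the inner ear and its neurons are built. The question the comparison addresses is which genes differ between the 2 ends of this path.

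In all, 1820 loci (19.1% of the expressed loci) were higher at 11-12ss and 1886 (19.8%) were lower, or 9.91% and 10.3% of all loci with counts. Counts of the gene lists below are over measured members or, where stated, over members past the levels. For the latter, and for lists whose members nearly all passed, the matching background is the share of expressed loci. For the other lists, the share of all loci is too low a background where members passed more often than loci at large. Members past the levels were 25 of 29 for apical constriction and polarity, 17 of 19 for Notch modifiers and 31 of 40 for axon guidance. They were 19 of 25 for otic placode factors, 15 of 23 for otic structural genes, 11 of 14 for FGF targets and 11 of 16 for retinoic acid genes. Epibranchial factors had 6 of 9, WNT inhibitors 13 of 17, Notch ligands and receptors 5 of 8, and BMP and TGF-beta receptors and SMADs 12 of 14. Calls in these lists are to be set against members past the levels and the share of expressed loci. The median fold change was 2.32 among the higher loci and 1.93 among the lower ones. Large changes were more often increases: 520 loci rose and 276 fell by over 4-fold, and 263 rose and 99 fell by over 10-fold. Among loci with a symbol and outside the shortest 5%, 90 rose and 87 fell by over 10-fold, so that the excess lay in short or unnamed loci. Of all the loci called higher or lower, the 95% interval lay wholly past 1.5-fold for 1606 higher and 1576 lower loci. Just inside the threshold, between 1.5 and 1.6-fold, there were 208 higher and 311 lower loci, and just outside it, between 1.4 and 1.5-fold, 300 and 443. Of the higher loci 71.2% carried a gene symbol, against 93.8% of the lower loci and 89.5% of all expressed loci. In bulk RNA, a change in the number of cells of a type and a change in RNA per cell cannot be told apart.

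**Figure D1:**
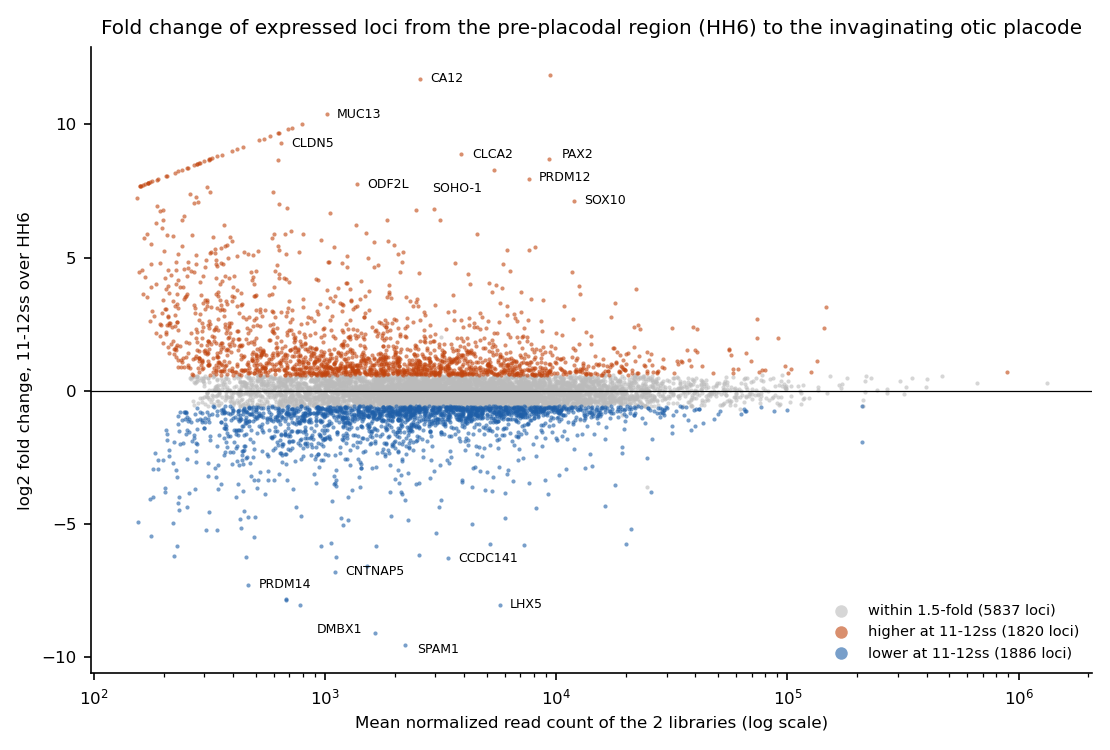
Each point is 1 of 9543 expressed loci, with the mean normalized read count of the HH6 and 11-12ss libraries on a log x axis and the log2 fold change of 11-12ss over HH6 on the y axis. Orange points are the 1820 loci called higher, blue points the 1886 called lower and grey points the 5837 that were not called; the straight upper left edge is made by loci with under 3 reads at HH6, which were set to 3.

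The libraries held 26858887 to 46345428 counted reads, except HH6, which held 136916870. HH6 also stood apart by locus length, here the reads per unit of RPKM in the whole embryo library. This measure depends on the deposited RPKM and ran from 0.000169 to 1141 kb, so it can differ from the sequence length of a locus. Short and long are used below in this sense. In the shortest of 20 bins of expressed loci, up to 0.328 kb, 65.4% were higher and 6.50% lower at 11-12ss, with a median log2 fold change of 1.31. In the longest bin 11.3% were higher and 32.7% lower, with a median of -0.35. Set against the whole embryo library, the shortest loci had a median log2 level of -0.91 at HH6, and of 0.31, 0.37 and 0.27 in the 3 later otic libraries in order of stage, so the library that differed was HH6. Of 69 loci that rose over 100-fold, 40 were among the shortest, and 14 had a gene symbol. The part that read type had in this trend was not tested. Calls of modest size depended on it: once the median of the length bin was removed, ADAM10, CDH11, CENPE, DKK3, DNMT3A, DNMT3B, HK1, KIF2C, LRP5, LRP6, PAX3, PRKCI and SMAD5, all described below as lower by under 2-fold, were no longer called.

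**Figure D2:**
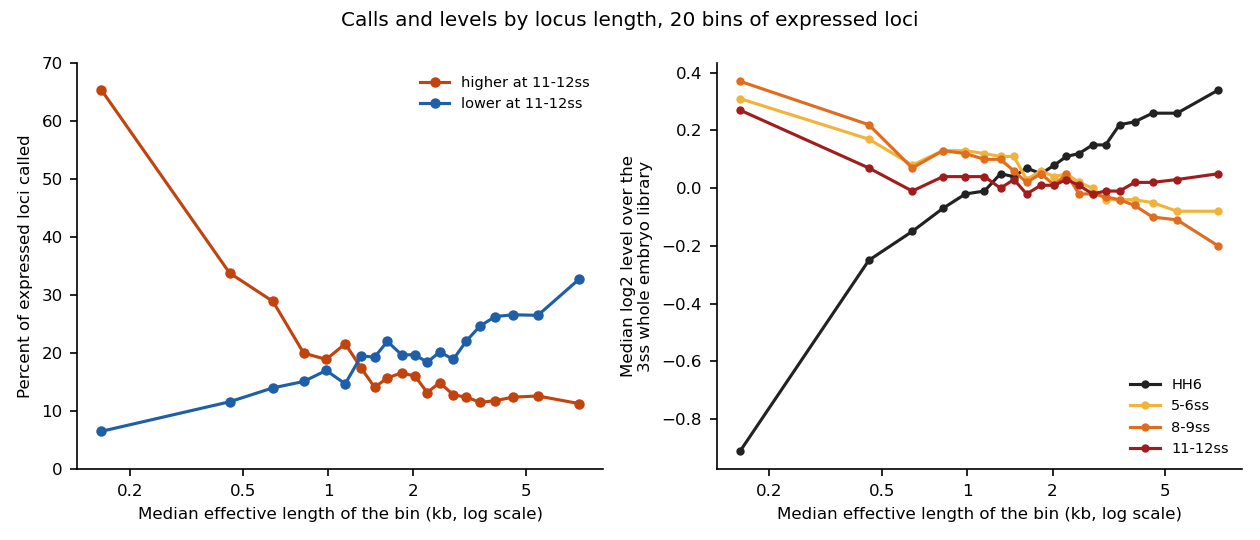
Left, percent of expressed loci called higher (orange) or lower (blue) at 11-12ss than at HH6 in 20 bins of loci by effective length (kb, log axis); right, median log2 level of each tissue library over the 3ss whole embryo library in the same bins. The share called higher fell from 65.4% in the shortest bin to 11.3% in the longest, and in the shortest bin the HH6 line lies at -0.91 while the other 3 lines lie above 0.

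Levels from here on are read counts divided by size factors over the 5 libraries ("normalized reads"), in the order HH6, 5-6ss, 8-9ss, 11-12ss, with the whole embryo last. Fold changes were computed with size factors on HH6 and 11-12ss alone and so differ slightly from the ratio of the printed levels. The labels were checked first. Of 6 pre-placodal markers, 1 stood below the whole embryo at HH6 and 5 stood above it, which were TFAP2A (15602 at HH6, 2393 in the whole embryo), DLX5 (6727 and 2028), DLX6 (2506 and 938), GATA2 (9429 and 5066) and EYA2 (3752 and 2304). For position along the head, the forebrain and midbrain factor OTX2 stood at 10617 at HH6 and 4746 in the whole embryo. GBX2, which marks the posterior side of that boundary, stood at 747 and 1812. By reads per unit of RPKM GBX2 is among the shortest loci, which at HH6 had a median log2 level of -0.91 against the whole embryo. Its sequence length was not checked. The list of anterior placode and forebrain factors described below, which holds OTX2, summed to 24123 at HH6 and 16996 in the whole embryo. Of its other members LHX5 (7686 and 2407) and DMBX1 (2221 and 457) stood above the whole embryo, and SIX6 (2.42 and 29.6) stood below it. The HH6 and whole embryo libraries also differ in stage, so stage and position cannot be told apart here. The word posterior in the label was not tested. At 11-12ss the 6 otic markers PAX2, SOX10, LMX1A, SOHO-1, GBX2 and EYA1 all stood above the whole embryo. They also stood above HH6, but that difference was used to choose the loci and is no separate check of the label.

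The named loci that rose most included membrane proteins and transcription factors. CA12, a membrane carbonic anhydrase, had 1 read at HH6 and 2618 reads at 11-12ss, with levels of 0.345, 200, 2337 and 3497 normalized reads and 0.987 in the whole embryo. Its ratio was 10079-fold (95% interval 1807 to 398238). MUC13, a transmembrane mucin, had no read at HH6 and rose over 47.2 and 285 to 1384, 1329-fold with HH6 set to 3 reads (95% interval from 1079 upward). HMX1, a homeobox factor of sensory organs, likewise had no read at HH6 and stood at 52.6, 295 and 851, 817-fold higher with HH6 set to 3 reads (from 663 upward). Its neighbour in function, the homeobox factor SOHO-1, went from 23.1 over 735 and 3253 to 7316, 315-fold (247 to 407). In all 4 of these genes the 11-12ss library held the highest level of the 5 libraries.

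PAX2, a paired-box factor needed in the otic and epibranchial territory, stood at 30.0, 7119, 7510 and 12655, and at 302 in the whole embryo, a rise of 419-fold (340 to 524). Most of that gain was present at 5-6ss. PRDM12, a zinc finger factor known from sensory neurons, stood at 41.8, 3865, 7490 and 10291 and was 245-fold higher (205 to 296). SOX10, an HMG-box factor of the otic placode and the neural crest, followed later, at 114, 706, 5157 and 16063, with 40.4 in the whole embryo, and was 141-fold higher (126 to 157). Among non-regulatory genes, CLCA2, a chloride channel accessory protein, stood at 11.0, 258, 3327 and 5283 (476-fold, 336 to 697), and ODF2L stood at 8.63, 259, 1763 and 1866 (215-fold, 145 to 334). CLDN5, a tight junction protein of vessels and epithelia, had 4 reads at HH6 and stood at 956, 858 and 875 thereafter (630-fold, 245 to 2321), while its deposited RPKM gave 43.2-fold. The remaining pair of the 12 rested on few reads: SIX6, an eye and pituitary factor, had 7 reads at HH6 (154-fold, 73.8 to 387), and the small heat shock protein CRYAB also had 7 (111-fold, 52.9 to 280).

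**Figure D3:**
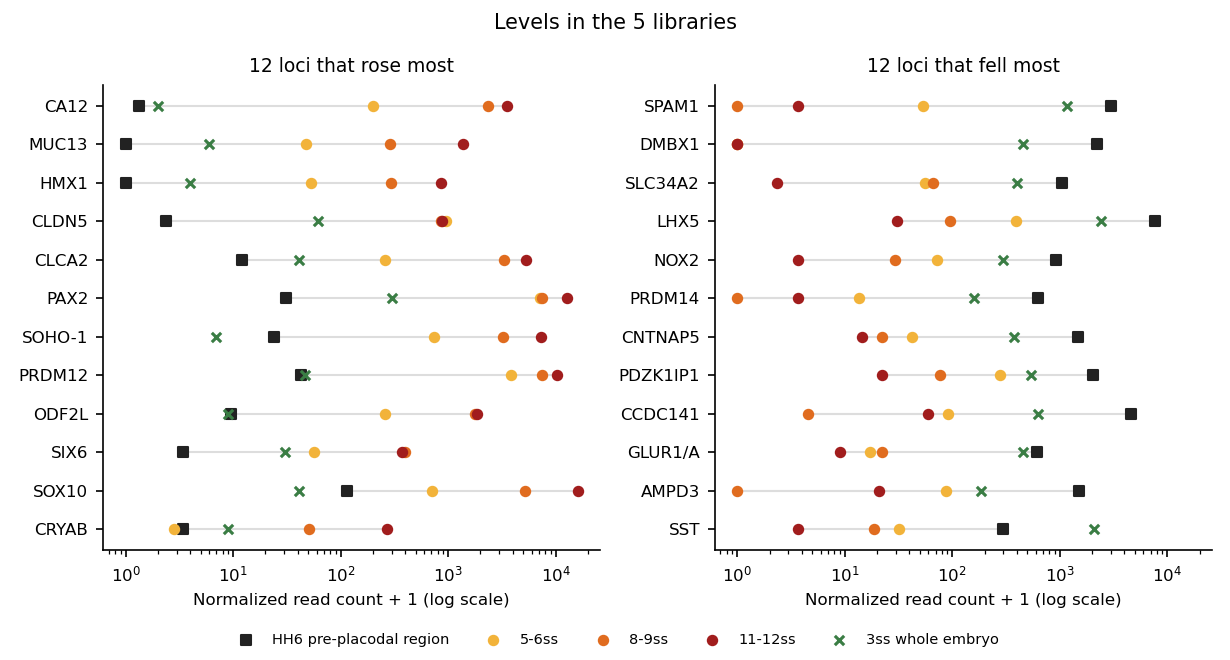
Normalized read count plus 1 (log x axis) in each of the 5 libraries for the 12 named loci that rose most (left) and the 12 that fell most (right) from HH6 to 11-12ss, leaving out the shortest loci; squares are HH6, circles the 3 later otic stages and crosses the whole embryo. PAX2 was at 7119 already at 5-6ss while SOX10 was at 706, and DMBX1 had no read in any of the 3 later stages.

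The loci that fell most held anterior and early ectoderm factors beside transporters and enzymes. DMBX1, a homeobox factor of the midbrain and diencephalon, stood at 2221 at HH6 and had no read in the 3 later otic libraries. It was 557-fold lower with 11-12ss set to 3 reads (95% interval from 453 upward). LHX5, a LIM homeobox factor of the forebrain, stood at 7686, 395, 95.3 and 29.4, with 2407 in the whole embryo, and was 263-fold lower (174 to 419). PRDM14, a repressor of differentiation in pluripotent cells, stood at 626, 12.7, 0 and 2.67, with 2 reads left at 11-12ss (235-fold lower, 65.1 to 1946). In all 3 most of the drop lay before 5-6ss.

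Most of the other strong losers code for enzymes, transporters and surface proteins. SPAM1, a hyaluronidase, stood at 2991, 52.6, 0 and 2.67 (1125-fold lower, 311 to 9292, on 2 reads at 11-12ss), and SLC34A2, a sodium phosphate cotransporter, at 1052, 54.4, 64.7 and 1.34 (792-fold, 142 to 31282, on 1 read). NOX2, a subunit of the NADPH oxidase, went from 919 to 2.67 (346-fold lower, 95.6 to 2855, on 2 reads). CNTNAP5, a contactin-associated protein, was 111-fold lower (60.4 to 232) and PDZK1IP1 95.8-fold lower (58.9 to 168). CCDC141 stood at 4561, 90.7, 3.53 and 58.8, so that its lowest level was at 8-9ss. The glutamate receptor subunit GLUR1/A (76.6-fold, 35.1 to 209) and the AMP deaminase AMPD3 (75.0-fold, 45.4 to 134) fell from 611 and 1495 at HH6. SST, the hormone somatostatin, stood at 298 at HH6 and 2070 in the whole embryo, and 2 reads were left at 11-12ss (112-fold lower, 30.9 to 927).

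Of 19 measured pre-placodal factors, 11 rose and 4 fell, with a median log2 fold change of 1.12 beside 0.00 over all loci. The EYA proteins, coactivators that pair with homeobox factors, were higher in the later tissue. EYA2 stood at 3752, 19594, 16971 and 15499 (4.11-fold). EYA1 reached 3242 from 417 (7.73-fold) and EYA4 2744 from 78.7 (34.7-fold), both with the highest level at 11-12ss, whereas SIX4 differed by 1.04-fold (0.975 to 1.10). IRX4 (27.7-fold) and IRX1 (2.17-fold), Iroquois homeobox factors, rose, and so did the forkhead factor FOXI2 (1.76-fold).

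Within several families of these factors the members went opposite ways, a pattern singled out after the values were seen. GATA2, the HH6 level of which was 9429, fell to 1527, 541 and 863 (11.0-fold lower, 10.2 to 11.9), while GATA3, a zinc finger factor of the inner ear, rose from 3063 to 13233 and 17841 and stood at 9892 at 11-12ss (3.21-fold, 3.12 to 3.31). DLX5 fell 1.99-fold and DLX6 was 1.48-fold lower, just short of the threshold. DLX6 passed it (-0.61, log2) with the median of its length bin removed. DLX3, in contrast, rose from 829 to 5633, 7670 and 7507 (9.01-fold, 8.59 to 9.46). TFAP2C fell 2.44-fold, TFAP2A differed by 1.24-fold, and TFAP2E rose from 256 over 2525 and 3802 to 5390 (21.0-fold, 19.4 to 22.7). MSX2, a homeobox target of BMP signals, fell 3.03-fold. GBX2 peaked early, with 747, 16282, 13473 and 5601 normalized reads, and its net rise was 7.46-fold (7.08 to 7.86), or 1.59 on the log2 scale once the median of its length bin was removed.

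**Figure D4:**
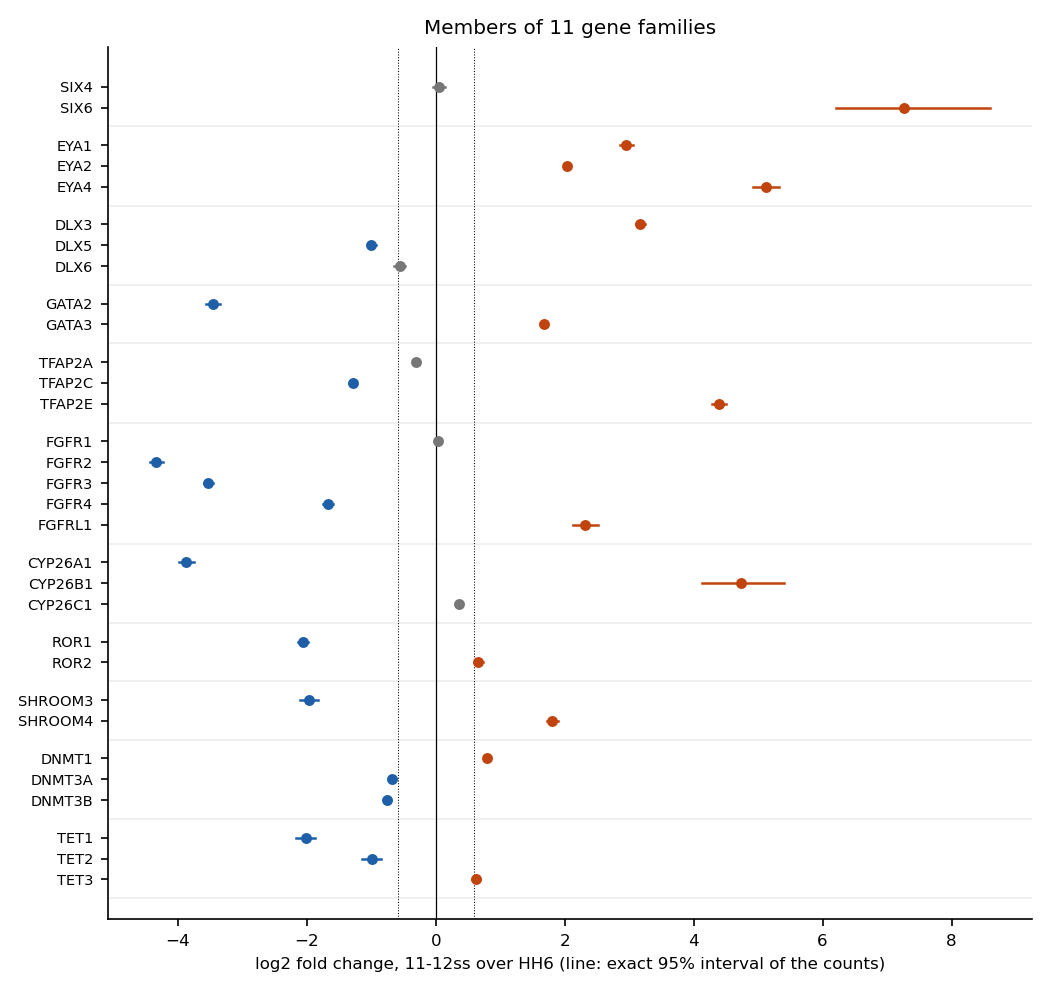
Log2 fold change of 11-12ss over HH6 (x axis) for the members of 11 gene families, with a line for the exact 95% interval of the 2 read counts; orange members were called higher, blue lower and grey neither, and dotted lines mark 1.5-fold. The families were picked after the values were seen: GATA2 lies at -3.46 and GATA3 at 1.68, CYP26A1 at -3.87 and CYP26B1 at 4.74.

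Of 20 measured members of a list of anterior placode and forebrain factors 9 passed the levels, of which 7 fell and 2 rose, with a median of -0.66 over the list. OTX2 stood at 10617, 2109, 344 and 505 (21.1-fold lower, 19.1 to 23.5) and its relative OTX1 at 444, 47.2, 38.8 and 38.7 (11.5-fold, 7.98 to 17.3, or -4.84 on the log2 scale with the median of its length bin removed). HESX1, a repressor of the anterior pituitary and forebrain, stood at 1133, 346, 91.8 and 103 (11.1-fold, 8.83 to 14.1). Besides DMBX1 and LHX5, described above, PAX3, a marker of the trigeminal placode (1.58-fold), and MAFA (1.82-fold) fell. The 2 members that rose were SIX6 and EMX1, a forebrain homeobox factor (24.1-fold, 17.2 to 34.5), which reached 374 and 334. The part that the position of the HH6 dissection had in these differences was not tested.

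Factors of the early epiblast and of undifferentiated cells fell in 10 of 20 cases and rose in 4, with a median of -0.72. POUV, the chick class V POU factor related to OCT4, stood at 32567, 16822, 6127 and 2332 and at 41216 in the whole embryo (14.0-fold lower, 13.4 to 14.7). NANOG, a homeobox factor of pluripotent cells, had already gone from 1527 to 125 at 5-6ss and stood at 56.1 at 11-12ss (27.4-fold, 20.2 to 38.0). ZIC2, a zinc finger factor of the neural plate and its border, fell too, from 2598 to 287 (9.09-fold), as did ZEB2 (5.04-fold) and the zinc finger factor SALL1 (3.52-fold). SALL1 is also counted in the list of committed otic placode factors below. The de novo DNA methyltransferases DNMT3A (1.60-fold) and DNMT3B (1.69-fold) fell, and the maintenance enzyme DNMT1 rose 1.75-fold. Of the TET enzymes, which oxidize methylcytosine, TET1 (4.04-fold) and TET2 (1.99-fold) fell and TET3 rose 1.54-fold. By the deposited RPKM, DNMT1 (1.4-fold), TET2 (1.36-fold lower) and TET3 (1.28-fold) were within 1.5-fold. LIN28B (1.59-fold), MYC (2.04-fold), SOX2 (2.21-fold) and CHURC1 (2.0-fold) rose. The symbol SOX2 stood on more than 1 locus, so that its value is uncertain, and CHURC1, a short locus, came to -0.31 on the log2 scale with the median of its length bin removed.

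Of 12 measured factors that the study places in otic-epibranchial progenitors, 8 rose and none fell, with a median of 2.78. The study drew that list partly on these libraries, so its direction is no independent evidence. The SoxE factor SOX8 stood at 260, 7407, 9592 and 10157 (38.9-fold, 36.1 to 42.0), and the LIM homeobox factor LMX1A at 337, 2138, 4891 and 5439 (16.0-fold, 15.0 to 17.2). ZBTB16, a BTB zinc finger repressor, stood at 697, 7280, 13533 and 15173 (21.7-fold, 20.7 to 22.7). The ETS factors ETV4 (9.85-fold) and ETV5 (1.65-fold), which respond to FGF signals, were higher, as were ZNF385C (6.10-fold) and IRX5 (7.75-fold). BLIMP-1, SALL4 and MYB were within 1.5-fold, with ratios of 1.09, 1.34 and 1.23 down. SOX13 stood at 5793, 9823, 12842 and 8424, highest at 8-9ss. Its net ratio of 1.45 missed the threshold, which it passed (0.61, log2) with the median of its length bin removed.

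In the list of factors of the committed otic placode 12 of 25 rose and 1, SALL1, fell, with a median of 1.35. Like the other lists, it was chosen with earlier results of these data known, so its direction is no independent evidence. Those that rose included SOX10, SOHO-1, HMX1 and PRDM12. The T-box factors TBX2 and TBX3 stood out by their timing. TBX2 stood at 29.3, 52.6, 119 and 2493 (84.5-fold, 68.0 to 106) and TBX3 at 155, 542, 608 and 3306 (21.3-fold, 19.2 to 23.6), so that of the 4 ectoderm libraries the one at 11-12ss alone passed 1000 normalized reads in both. Smaller rises were seen for MEIS2 (4.14-fold), MEIS1 (2.02-fold), SOX9 (2.30-fold), ZFHX3 (2.36-fold) and RERE (1.94-fold), and LMX1B differed by 1.03-fold. Of 9 epibranchial factors 5 rose, with a median of 0.91. Among them NR2F2, an orphan nuclear receptor, rose from 102 over 628 and 1918 to 6106 (59.9-fold, 53.2 to 67.6) and VGLL2, a TEAD cofactor of the epibranchial placodes, 1.88-fold. By in situ hybridization at a slightly later stage, the study saw both genes in epibranchial cells and not in the otic placode. The part of epibranchial cells in the 11-12ss library was not tested. HOX genes were little expressed: 2 of 23 passed the levels, and HOXA2, a gene of the hindbrain and hyoid arch, rose from 182 to 1272 (6.94-fold, 6.23 to 7.73), below its 2721 in the whole embryo.

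Structural and secreted genes of the otic epithelium rose in 12 of 23 cases and fell in 2, with a median of 2.90. This list too was chosen with earlier results of these data known, and its largest rise is that of CA12, described above. Its direction is therefore no independent evidence. COL2A1, a fibrillar collagen of the otic capsule and tectorial structures, stood at 13329, 27461, 43876 and 87485 (6.53-fold, 6.45 to 6.61). SMOC1, a secreted calcium-binding protein, stood at 253, 441, 6002 and 10752 (42.2-fold, 39.1 to 45.6). OTOG, which codes for otogelin of the membranes that overlie the hair cells, went from 372 to 2372 (6.34-fold, 5.88 to 6.85), with 62.2 in the whole embryo. EFEMP1, a fibulin, stood at 9.32, 14.5, 22.4 and 520 (55.5-fold, 37.5 to 85.3) and CALB2, the calcium-binding protein calretinin, at 160, 152, 95.3 and 911 (5.66-fold, 5.02 to 6.38), both with their increase after 8-9ss. ATP1B1, a sodium pump subunit, fell 2.04-fold. COL9A3 fell 3.10-fold, but its symbol stood on more than 1 locus, and the other chains COL9A1 (1.94-fold) and COL9A2 (2.60-fold) rose. OTOGL (0 and 96 reads), TECTA (31 and 103) and COCH (3 and 28) had more reads at 11-12ss although HH6 was sequenced more deeply, but did not pass the levels.

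Of 39 measured genes mutated in human hearing loss 27 passed the levels, of which 15 rose and 6 fell, with a median of 0.34 over the list. Those that rose included EYA1, EYA4, GATA3, SOX10 and collagens. USH1C, the scaffold protein harmonin, stood at 96.3, 134, 619 and 1592 (16.4-fold, 14.4 to 18.8). PCDH15, a component of the tip link (1.95-fold), DFNB31, which codes for whirlin (2.61-fold), ESPN, an actin-bundling protein (1.67-fold, but 1.46-fold by RPKM), and TPRN (2.51-fold) were also higher, as was the connexin GJB6 (2.96-fold). The endothelin receptor EDNRB (4.22-fold) and the formin DIAPH1 (3.62-fold) fell.

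**Figure D5:**
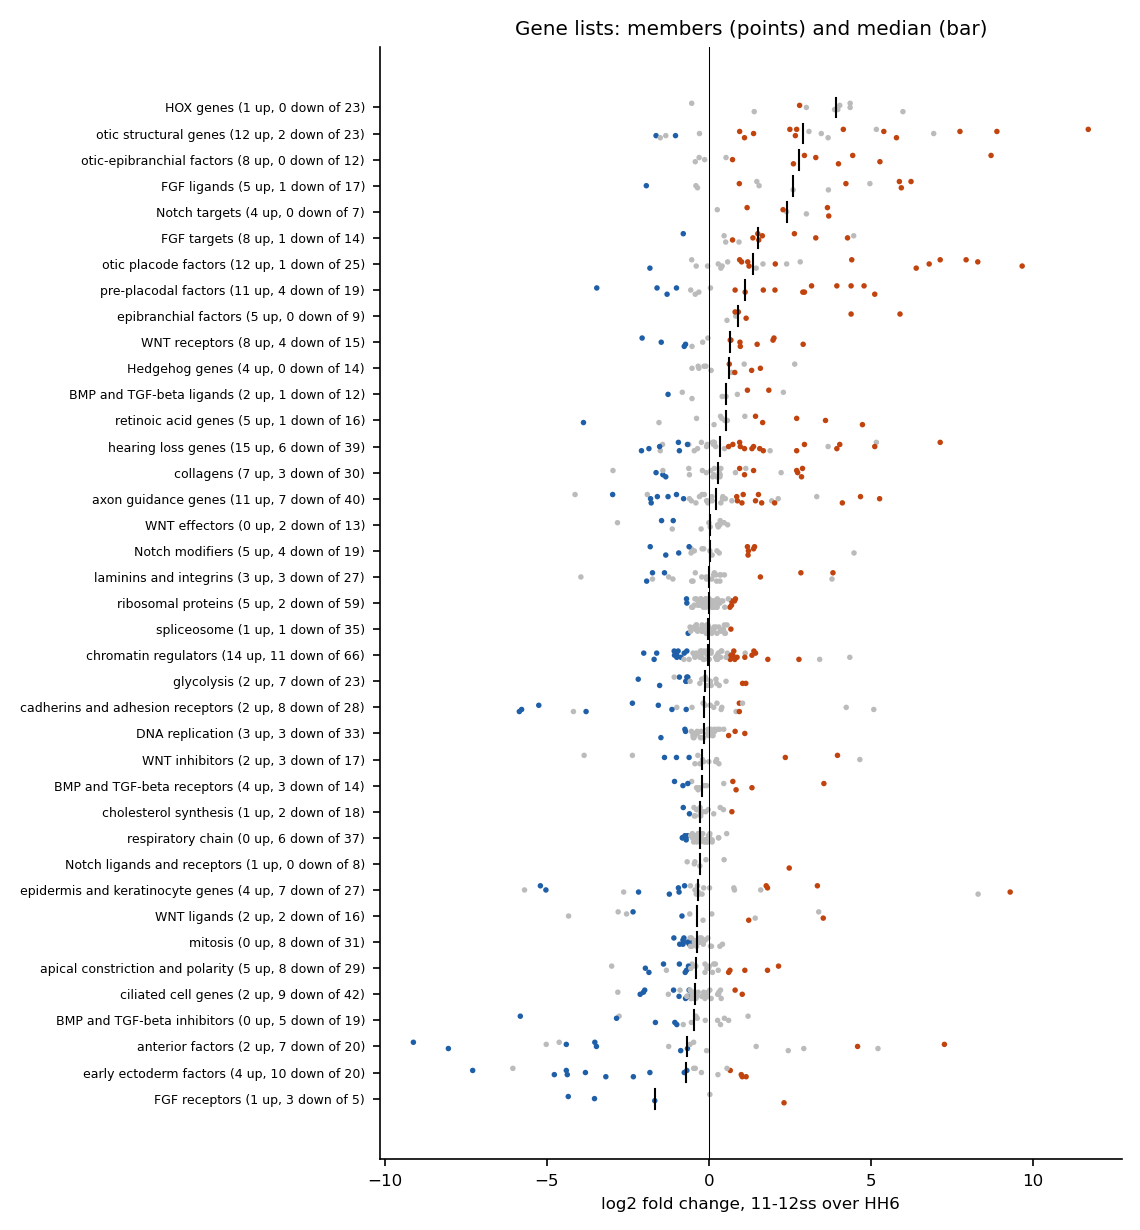
Log2 fold change of 11-12ss over HH6 (x axis) for the members of 39 gene lists that averaged 10 or more normalized reads; each point is a gene (orange called higher, blue called lower, grey neither) and the bar is the median of the list. The label of each list gives how many of its measured members were called, and the medians run from 3.93 for HOX genes, of which 2 passed the levels, to -1.67 for FGF receptors.

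Of 17 measured FGF ligands 6 passed the levels, of which 5 rose and 1 fell. FGF8 stood at 32.8, 901, 2750 and 2020 (61.3-fold, 49.8 to 76.2), FGF18 at 24.2, 109, 1058 and 1834 (75.5-fold, 59.4 to 97.4) and FGF10 at 18.3, 143, 740 and 1079 (58.7-fold, 44.4 to 79.0). FGF19, an inducer of the otic placode in chick, rose from 23.1 to 437 (18.8-fold, 14.4 to 24.8), though the whole embryo held 3180. The intracellular family members FGF12 (1.92-fold higher) and FGF13 (3.81-fold lower) also differed. FGF3 went from 48 to 390 reads but missed the levels.

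Of 5 FGF receptors 3 fell and 1 rose. FGFR2 stood at 21029, 3408, 1085 and 1046 (20.2-fold lower, 18.8 to 21.7), FGFR3 at 22286, 2822, 2098 and 1945 (11.5-fold lower, 10.9 to 12.1) and FGFR4 at 5647, 1897, 1537 and 1782 (3.18-fold lower, 3.01 to 3.37). FGFR1 held its level, with 26664, 26137, 25673 and 27389 and a ratio of 1.02 (1.01 to 1.04). FGFRL1, a receptor without a kinase domain, rose 5.00-fold (4.38 to 5.73). Of 14 feedback inhibitors and target factors 8 rose and 1 fell, with a median of 1.51. SPRY2, a Sprouty inhibitor of the pathway, stood at 480, 4137, 4585 and 3016 (6.25-fold, 5.85 to 6.69), and IL17RD, also called SEF, at 2862, 11780, 11041 and 9011 (3.13-fold). SPRED1 (2.57-fold), SPRED2 (2.92-fold), FLRT3 (2.85-fold) and RASL11B (19.4-fold) rose, and the phosphatase DUSP5 fell 1.73-fold.

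WNT ligands were low. Of 16 measured, 4 passed the levels. WNT5A rose from 243 to 2815 (11.5-fold, 10.6 to 12.6) and WNT5B 2.34-fold, while WNT4 fell 1.78-fold and WNT6, a ligand of surface ectoderm, fell from 209 to 41.4 (5.07-fold, 3.53 to 7.53). WNT8C, known from the hindbrain beside the otic territory, had 233 reads at HH6 and 0 at 11-12ss, with 8040 normalized reads in the whole embryo. The 15 measured receptors and coreceptors divided, 8 up and 4 down. The Frizzled receptors FZD4 (7.50-fold, 6.84 to 8.23), FZD1 (4.02-fold), FZD2 (3.94-fold) and FZD3 (1.94-fold) and the R-spondin receptors LGR5 (2.81-fold) and LGR6 (1.96-fold) rose. FZD8 rose 1.60-fold but came to -0.63 on the log2 scale with the median of its length bin removed. FZD10 (2.77-fold) and the coreceptors LRP5 (1.65-fold) and LRP6 (1.69-fold) fell. Of the ROR receptors for WNT5A, ROR1 fell from 9445 to 2278 (4.17-fold, 3.97 to 4.38) and ROR2 rose 1.58-fold. Among 17 inhibitors KREMEN1 (15.7-fold) and APCDD1 (5.14-fold) rose, and FRZB (2.59-fold), SOSTDC1 (2.01-fold) and DKK3 (1.53-fold) fell. The agonist RSPO3 (2.15-fold) and APC, a part of the beta-catenin destruction complex (2.75-fold), also fell.

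Of 7 measured target repressors of the Notch pathway 5 passed the levels, of which 4 rose and none fell, with a median of 2.40 over the list. HEY1 stood at 685, 6411, 11672 and 8935 (13.0-fold, 12.3 to 13.7), HES1 at 842, 1473, 2729 and 1918 (2.27-fold), and HEYL rose 12.6-fold from 61 reads and NRARP 4.91-fold. The last pair came to 2.35 and 0.98 on the log2 scale with the medians of their length bins removed. Among 8 ligands and receptors 1 differed: JAG1, a ligand of the prosensory domain, at 866, 3979, 3489 and 4866 (5.59-fold, 5.31 to 5.89). NOTCH1 was 1.39-fold higher and DLL1 1.37-fold lower, both short of the threshold. NOTCH1 passed it (0.69, log2) with the median of its length bin removed. Modifiers went both ways, 5 up and 4 down of 19. LFNG, a glycosyltransferase that changes which ligands activate the receptor, rose 2.66-fold and DTX4, a Deltex protein, 2.61-fold. DTX3L (3.51-fold), MAML2 (2.51-fold), MIB1, the ubiquitin ligase needed by the ligands (1.91-fold), and ADAM10, the protease that cleaves the receptor (1.53-fold), fell.

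Among BMP and TGF-beta ligands, BMP7 (2.28-fold, 2.21 to 2.36) and BMP2 (3.61-fold, 3.20 to 4.08) rose and BMP4 fell from 4409 to 1854 (2.39-fold, 2.26 to 2.53). Of 19 measured inhibitors 11 passed the levels, of which 5 fell and none rose, with a median of -0.47 over the list. BMPER, an extracellular BMP modulator, stood at 1281, 122, 28.2 and 22.7 (56.7-fold lower, 35.3 to 97.4), the pseudoreceptor BAMBI at 1966, 646, 386 and 274 (7.22-fold) and FST, the activin antagonist follistatin, at 2340, 238, 248 and 748 (3.14-fold). SMURF1 (2.07-fold) and SMURF2 (1.99-fold), which mark receptors for breakdown, fell as well. Of 14 measured receptors and SMADs 4 rose and 3 fell. The TGF-beta receptor TGFBR2 (11.7-fold, 9.50 to 14.4), the coreceptor ENG (2.51-fold) and SMAD2 (1.79-fold) and SMAD3 (1.67-fold) rose, and SMAD5 (1.57-fold), SMAD9 (1.74-fold) and BMPR1A (2.09-fold) fell. By RPKM, SMAD3 (1.39-fold) and SMAD5 (1.38-fold lower) were within 1.5-fold.

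Retinoic acid genes rose in 5 of 16 cases and fell in 1. The degrading enzymes divided within their family. CYP26A1 stood at 11721, 863, 418 and 805 (14.6-fold lower, 13.5 to 15.9), CYP26B1 rose from 8.63 to 231 (26.6-fold, 17.5 to 42.3) and CYP26C1 differed by 1.28-fold. The binding proteins CRABP-I (12.1-fold, 11.3 to 13.0) and CRABP2 (6.56-fold, 6.35 to 6.77), the retinol transporter STRA6 (2.71-fold) and the receptor RXRG (3.16-fold) rose. CRABP2, a short locus, came to 1.40 on the log2 scale with the median of its length bin removed. The enzyme that makes retinoic acid, ALDH1A2, had 519 reads at HH6 and 290 at 11-12ss before scaling for depth. After scaling its log2 fold change was 1.11, but it was not called. The whole embryo held 16644 normalized reads of ALDH1A2, and its symbol stood on more than 1 locus. In the Hedgehog pathway the coreceptor CDON (3.00-fold) and the zinc finger effectors GLI1 (2.50-fold) and GLI3 (1.55-fold) rose. GLI2 rose 1.74-fold, again on a symbol with more than 1 locus.

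Of 28 measured genes of cell adhesion 16 passed the levels, of which 8 fell and 2 rose. CNTN2, a contactin of axons, stood at 9671, 2461, 228 and 176 (55.1-fold lower, 46.5 to 65.9) and CDH13, a cadherin without a cytoplasmic tail, at 2219, 149, 8.24 and 38.7 (57.6-fold, 40.1 to 86.0). CDH8 (37.9-fold), CHL1 (13.9-fold), CDH7 (5.14-fold), NFASC (2.96-fold), PCDH8 (2.21-fold) and CDH11 (1.62-fold) followed. The members that rose were CDH2, N-cadherin (1.92-fold, 1.85 to 1.99), the lowest level of which was 901 at 5-6ss, and ALCAM (1.92-fold).

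Of 29 measured genes of apical constriction and polarity, the machinery by which an epithelium bends, 5 rose and 8 fell, with a median of -0.40, which came to -0.06 with the medians of the length bins removed. SHROOM3, an actin-binding protein of the apical junctions, fell 3.89-fold (3.53 to 4.29) and SHROOM4 rose 3.50-fold (3.30 to 3.72). The membrane-to-actin linker EZR (4.45-fold) and the polarity receptor PTK7 (2.16-fold) rose, and CELSR1 (2.63-fold) and PRKCI (1.66-fold) fell. Of 27 measured basement membrane proteins and their receptors 15 passed the levels, of which 3 rose and 3 fell, with a median of 0.01. FN1, fibronectin, stood at 225635, 145608, 71630 and 59887 (3.79-fold lower, 3.75 to 3.82), and the laminin receptor subunit ITGA6 fell 3.35-fold. ITGB3, an integrin subunit that binds fibronectin and vitronectin, rose from 1965 over 13191 and 30451 to 28133 (14.2-fold, 13.8 to 14.7), and TNC, tenascin, rose 7.17-fold. Of 30 measured collagen chains 17 passed the levels, of which 7 rose and 3 fell. The basement membrane collagens COL4A1 (2.67-fold) and COL4A2 (2.52-fold) fell. The fibrillar collagens COL5A1 (7.25-fold), COL5A2 (7.39-fold) and COL27A1 (6.68-fold) rose, in all 3 cases with the highest level at 11-12ss. This contrast covers the chains named here and was not tested over all collagens.

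Of 40 measured axon guidance genes 11 rose and 7 fell, with a median of 0.23. SEMA3D, a secreted semaphorin, stood at 210, 2195, 4152 and 8112 (38.5-fold, 35.4 to 41.9), while SEMA3A stood at 7394, 1707, 1151 and 948 (7.84-fold lower, 7.27 to 8.46). The semaphorin receptor PLXND1 (17.3-fold), the ephrin EFNA2 (25.6-fold), the SLIT receptor ROBO1 (4.07-fold) and the Eph receptors EPHA5 (3.10-fold) and EPHA4 (2.72-fold) rose. EFNB2 peaked at 5-6ss, with 10488, 25851, 8921 and 3067, and was 3.44-fold lower at the end, and the netrin receptor UNC5B was 3.48-fold lower. EFNA2, a short locus with 50 reads at HH6, came to 3.37 on the log2 scale with the median of its length bin removed and to 5.59 by RPKM.

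Of 27 measured surface ectoderm genes 22 passed the levels, of which 7 fell and 4 rose. GRHL3, a Grainyhead factor of the epidermis, stood at 1568, 502, 18.8 and 48.1 (32.8-fold lower, 23.6 to 46.9), and ASTL, an astacin-type metalloprotease, at 27780, 12306, 3378 and 760 (36.7-fold, 33.8 to 40.0). The desmosome protein PKP2 (4.50-fold), the keratin KRT19 (2.33-fold), GRHL2 (1.92-fold), OVOL2 (1.89-fold) and the claudin CLDN1 (1.69-fold) were lower. PERP, a desmosome protein (10.2-fold), DSG2 (3.41-fold), CLDN3 (3.51-fold) and CLDN5 were higher, and CLDN3 came to 0.50 on the log2 scale with the median of its length bin removed, below the threshold.

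All 31 measured genes of mitosis passed the levels, 8 fell and none rose, with a median of -0.38. Among them were the kinases TTK (2.11-fold) and CDC2 (1.52-fold) and the kinesins CENPE (1.87-fold) and KIF2C (1.74-fold). By RPKM CDC2 was within 1.5-fold (1.46-fold lower), and CENPE and KIF2C were not called with the medians of their length bins removed. The median of the mitosis list came to -0.27 with that removal. All 37 measured subunits of the respiratory chain passed the levels, 6 fell and none rose, with a median of -0.27. Of all expressed loci 19.8% were lower and 19.1% higher. Of 23 genes of glucose uptake and glycolysis 22 passed the levels, of which 7 fell and 2 rose. The glucose transporter SLC2A3 fell 4.55-fold (4.36 to 4.75), SLC2A1 1.88-fold and the pyruvate dehydrogenase kinase PDK1 2.87-fold. Of the hexokinases HK1 fell 1.62-fold and HK2 rose 2.06-fold. Among members past the levels, few differed in DNA replication (3 up, 3 down of 33) and cholesterol synthesis (1 up, 2 down of 17). The same held for the spliceosome (1 up, 1 down of 35) and ribosomal proteins (5 up, 2 down of 57). The medians of these lists were -0.16, -0.26, -0.03 and 0.01, and the last came to -0.36 with the medians of the length bins removed. Of 42 genes of ciliated cells 26 passed the levels, of which 9 fell and 2 rose. The median over the list was -0.44, or -0.25 with the medians of the length bins removed. The ciliogenesis factors RFX2 (3.93-fold) and RFX3 (4.06-fold) were lower. Of 66 chromatin regulators 60 passed the levels, of which 14 rose and 11 fell, beside 19.1% and 19.8% of all expressed loci. BRD3 (6.87-fold) and KAT2B (3.53-fold) were higher and CHD9 (3.23-fold) and KMT2A (3.05-fold) lower. On the log2 scale CHD9 moved from -1.69 to -3.00 with the median of its length bin removed, and KMT2A from -1.61 to -0.69 by RPKM. Reads per unit of RPKM placed CHD9 in the shortest bin, and its sequence length was not checked.

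On the RPKM scale, which allows levels of different genes to be compared, the called loci that gained most were abundant transcripts. DTX4 went from 118 to 1394 RPKM, UBB, a ubiquitin gene, from 821 to 1669, STMN1, a microtubule regulator, from 918 to 1594, and YBX1, a cold shock domain protein, from 1408 to 2062. RPB6 (154 to 768), TUBB (1421 to 1987), CIRBP (577 to 1127) and BSG (550 to 1067) followed. For DTX4 the rise in normalized count was 2.61-fold, much below that in RPKM, so the scale matters there. In all, 30 named genes differed between the scales by over 1.5 times, including HBA1, SPI1 and SOX1, which had no read in either library. Examples by log2 fold change in counts and in RPKM are BMPER (-5.82 and -5.12), RFX3 (-2.02 and -1.43) and PCDH15 (0.97 and 1.70). Further ones are TGFBR2 (3.55 and 4.17), ODF2L (7.75 and 8.66) and SIX6 (7.27 and 6.24). On the log2 scale IRX4 went from 4.79 by counts to 6.83 by RPKM, IRX5 from 2.95 to 1.62, OTOG from 2.67 to 4.07, CDH8 from -5.25 to -4.26, FGF12 from 0.94 to 1.81 and FGF13 from -1.93 to -1.04. The losses were led by NME2, a nucleoside diphosphate kinase (2095 to 1069), RPL17L (2146 to 1301) and POUV (907 to 68.0). CLDN1 (1589 to 891), PPAP2A, a lipid phosphatase (711 to 15.3), FN1 (570 to 150), ASTL (329 to 14.3) and DAG1, dystroglycan (394 to 104), made up the rest. PPAP2A fell 54.7-fold in normalized count (49.3 to 60.7) and DAG1 3.03-fold.

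Markers of other cell types that a dissection could carry were summed in each library. Blood and vessel markers summed to 330 normalized reads at HH6, 2982 at 5-6ss, 3509 at 8-9ss and 5415 at 11-12ss, and to 7785 in the whole embryo. In that list of 13 measured genes 9 averaged 10 or more normalized reads. All 9 had a log2 fold change above 0, with a median of 5.00. CLDN5 and LMO2 (25.2-fold, 22.0 to 29.0) were called higher. The vessel genes KDR (347 and 830 reads before scaling), CDH5 (45 and 397, log2 fold change 5.09) and TEK (14 and 219, log2 fold change 5.91) did not pass the levels. HBA1 and SPI1 had no read in either library. Paraxial and head mesoderm markers summed to 938 at HH6, 3108 at 11-12ss and 24086 in the whole embryo, with FOXC2 (4.95-fold) and PAX1 (10.3-fold) higher and TBX6 at 47 and 7 reads. Endoderm markers summed to 1368 and 1115, with a sum of 4959 at 5-6ss, and GATA5 fell 2.09-fold. Notochord markers summed to 535 and 633, against 51501 in the whole embryo. Neural tube markers summed to 10187 and 23482, of which EPHA4 held 6685 and 18259, and SOX1 had no read in either library. Neural crest markers summed to 14835 and 32106, of which SOX10, also an otic gene, held 114 and 16063. The part of other cells in the differences above was not tested.

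The libraries between the ends were not used to choose the loci, but their levels are given relative to HH6, which was. The 1820 higher loci had a median level of 1.93-fold over HH6 at 5-6ss, 2.15-fold at 8-9ss and 2.32-fold at 11-12ss, and of 1.43-fold in the whole embryo. The 1886 lower loci stood 1.77-fold below HH6 at 5-6ss, 2.08-fold at 8-9ss, 1.92-fold at 11-12ss and 1.5-fold in the whole embryo. By these medians most of the distance from HH6 was present at 5-6ss in both directions. These values share the HH6 library, so that anything particular to it enters each of them. Single genes departed from the medians in both directions: TBX2, EFEMP1 and CALB2 gained at the last step, and DMBX1 and NANOG were lost at the first.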

How the data were processed

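Poly(A) libraries (TruSeq V2 kit) of ectoderm dissected at HH6 and at 3 later otic stages and of the 3ss whole embryo were used, 1 per condition. The authors sequenced single or paired reads, aligned reads with TopHat2 2.0.7 to galGal4 and merged Cufflinks 2.1.1 assemblies. Which read type belongs to which library is not given in the sources used here. Read counts per locus, made by the authors with easyRNAseq 2.1.0, were deposited without normalization, and RPKM values, made by the authors with Cuffdiff 2.1.1, were scaled by length and depth before they were deposited. Symbols came from the deposited tables, and 216 loci with RPKM 0 and no count were not used. The count tables named no strand, so overlapping and antisense genes cannot be told apart, nor can near-identical copies.

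Size factors by the median of ratios, as in DESeq, were 1.96 for HH6 and 0.510 for 11-12ss and divided the counts. Counts under 3 were set to 3, and a ratio on 1 or 2 reads is printed as counted. Intervals are Clopper-Pearson at 95% and cover counting error, with PCR copies not told apart. No p-value was computed. Medians of 46 lists used members averaging 10 or more normalized reads, leaving out genes that share a locus. Some list members are counted but not reported here by name. Named genes were the described list members, called ones first and then by size, the 12 loci with a symbol that rose and fell most outside the shortest 5%, and the 8 that gained and lost most RPKM. Members and lists were chosen with earlier results of these data known.

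Alternatives were size factors over 5 libraries, TMM (edgeR 4.0.16, R 4.3.3), total counts, RPKM folds, no RPKM or count level, 2-fold, intervals past 1.5, symbols alone, no shortest loci and thinned HH6 reads. Removal of length-bin medians was added after seeing the data. Scripts (Python 3.11.15 with scipy 1.17.1 and pandas 2.3.3) were tested on simulated data.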

Additional observations from a re-analysis of the deposited data

How the results depend on the processing

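Size factors over 5 libraries, TMM, total counts and HH6 reads thinned to the 11-12ss total changed no call among the 268 named genes, and the counts of higher and lower loci stayed within 1774 to 1860 and 1861 to 1960. By deposited RPKM 2022 loci were higher and 1606 lower, 15 named genes had another call, among them TUBB, YBX1, FZD3, SMAD3 and ESPN, and the median of the WNT ligands turned from -0.38 to 0.17. With length-bin medians removed 1873 were higher and 1717 lower, 19 named genes had another call, and CHURC1 (-0.31) and FZD8 (-0.63, log2) changed direction. Without the count level 2863 loci were higher, without any level 7474 and 3479 were higher and lower, and over 2-fold 1125 and 858. Loci with a symbol alone gave 1295 and 1769, and those outside the shortest 5% gave 1505 and 1854, each within 1.5 times of 1820 and 1886. Thinning moved genes with few HH6 reads, such as the log2 values of CA12 (11.71 to 9.80), CLDN5 (9.30 to 7.80) and EFEMP1 (5.79 to 7.05). The cause of these shifts was not tested, beyond the settings' own construction. No paired analysis was possible because each condition is 1 library, and none could be left out. Depth limits genes with few reads in either library, where 3 reads were the floor. Of the called loci 40 higher and 6 lower ones had a count under it, and 33 higher loci had no read at HH6. Spread between embryos is unknown.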

Other observations

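Some loci moved and came back, and so are missing from the net comparison. Among loci within 1.5-fold between HH6 and 11-12ss, 87 stood over 2-fold above HH6 at 5-6ss or 8-9ss. In the other direction 130 stood over 2-fold below it, and all were measured against the same HH6 library. The longest of the 20 length bins dipped as a whole. Its median log2 level over the whole embryo was 0.34 at HH6, -0.08 at 5-6ss, -0.20 at 8-9ss and 0.05 at 11-12ss. The part of this trend in the 130 was not tested. The 87 included loci that did not pass the levels at HH6 or 11-12ss, such as ADRB1 and TTR. The counts of 87 and 130 therefore share no common background. DHRS3, a retinaldehyde reductase, stood at 2709, 12642, 10878 and 4041 normalized reads at HH6, 5-6ss, 8-9ss and 11-12ss. IRS1, an insulin receptor substrate, stood at 1142, 4032, 1450 and 1500, and NUAK2, a kinase, at 3321, 10953, 6409 and 2752. The adrenergic receptor ADRB1 peaked at 5-6ss, with 526 normalized reads against 43.2 at HH6 and 54.8 at 11-12ss. TTR (677 at 5-6ss, 15.9 at HH6 and 10.7 at 11-12ss) and APOA1 (3288, 641 and 577) also peaked there. Both are members of the summed endoderm markers, which stood at 1368 at HH6 and 4959 at 5-6ss. APOA1 alone made up 3288 of the 4959 at 5-6ss, so the sum is no separate observation. The part of endoderm cells in that library was not tested. In the other direction NRP2, a semaphorin receptor, stood at 1451, 484, 328 and 1555, and FSTL4, a follistatin-like protein, at 3507, 934, 1377 and 2753.

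A deposited RPKM of 0 did not always mean few reads. For 66 loci the library with the higher normalized count, over 300, was listed at an RPKM of 0, and 30 of these had a fold change over 1.5, 22 upward and 8 downward. The rule leaves them out. The largest of them in reads was TCF12, a bHLH factor, with 150720 and 24194 reads (log2 fold change -0.69), and the strongest to fall was LRP2, the endocytic receptor megalin, with 90059 reads at HH6 and 1885 at 11-12ss (12.4-fold lower, 95% interval 11.9 to 13.0). LRP2 stood at 31093, 13603, 5285 and 2518 normalized reads. ACTN1 (-0.90) and CECR2 (-1.10) were lower as well. Several of those that rose carried symbols of histone or small RNA genes with many near-identical copies, whose reads cannot be assigned to 1 locus.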
